A study of Mus musculus with 2 samples.

Results

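The genes described here are 35 genes of glycolysis and of the response to low oxygen, chosen by symbol from the 28692 genes in the deposited tables. They were divided by role into 13 glycolytic enzymes, 6 transporters and regulators of glucose use, 14 genes known to be induced by hypoxia, and the pair Mif and Hif1a, which were kept apart. All 35 symbols were found, each with an Ensembl identifier that matched the GENCODE M21 annotation, and each had at least 10 unique molecular identifiers (UMIs, the counted molecules of droplet sequencing) in the kept cells. The values come from droplet single-cell RNA sequencing of mononuclear cells of C57BL/6 mouse liver, depleted of hepatocytes and enriched by density centrifugation. There were 2 libraries, 1 for each group, and each pooled 3 mice. MC38 is a mouse line of colon adenocarcinoma, and 500000 of its cells had been put into the spleen, followed by splenectomy, 14 days before the livers of the MC38 group were taken. The control mice received buffer by the same route, and their library is labelled as free of tumor. The labels give both groups 1 protocol text, which also describes 3000000 MC38 cells under the skin, and they do not say whether this or the splenectomy applied to control animals.

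Glycolysis splits glucose into pyruvate in the cytosol and, when lactate dehydrogenase turns pyruvate into lactate, can yield energy without oxygen. Under low oxygen the prolyl hydroxylases that mark the transcription factor subunit HIF-1 alpha for destruction lose activity, the factor accumulates, and it raises many glycolytic enzymes together with genes for blood vessel growth, removal of mitochondria and lipid storage. Activated lymphocytes and inflammatory macrophages are also known to raise glycolysis when oxygen is not limiting, so the enzymes and the hypoxia-induced genes are given apart throughout.

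HIF is known to bind DNA that holds the letters ACGTG, so the 250 bases before the transcription start of members were searched for ACGTG on either strand (CACGT on the printed strand). Of the 35 members, 32 had a promoter in the RefSeq table of build GRCm38.p6, and Slc2a3, Bnip3l and Ndrg1 had none. The letters were found for 21 of these 32 genes (65.6%), against 18.5% of the 27025 genes in the table. By group, they were found for 11 of 12 hypoxia-induced genes, 6 of 13 enzymes, 3 of 5 transporters and regulators, and 1 of the pair Mif and Hif1a. The members' promoters were also richer in G and C, with a median of 64.0% against 52.4% over all genes, and base composition alters how often these letters occur. The longer palindrome CACGTG, which other factors are known to bind and which contains both forms, was found for 5 of the 32 genes (15.6%) and for 6.86% of all genes. A match is a description of the letters, not of binding.

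The promoters below were chosen because their genes differ in the comparisons that follow: Ldha, Aldoa and Egln3 were higher in monocyte- or macrophage-like cells of the MC38 library, Pgk1, Hk2 and P4ha1 held the letters and were not, and Hilpda was higher and has start sites with and without the letters. Capitals mark the ACGTG and CACGT letters, and each sequence runs 5′ to 3′ on the strand of its gene. The Ldha window (chr7:46845554-46845803, plus strand) held 5 matches, overlapping ones counted singly. The Pgk1 (chrX:106186850-106187099, plus strand) and Hk2 (chr6:82774455-82774704, minus strand) windows held 2 each. The Egln3 (chr12:54203875-54204124, minus strand), Aldoa (chr7:126799255-126799504, minus strand) and P4ha1 (chr10:59323046-59323295, plus strand) windows held 1 each, and the printed Hilpda window (chr6:29272238-29272487, plus strand) held none. A second Hilpda window (chr6:29272376-29272625), not printed because it overlaps an annotated exon, held 1 match, 43 bases before its start site, and by it Hilpda counts among the 11 genes. A gene counts as holding the letters if any of its windows does, so a gene with more windows has more chances to hold them. The second window of Ldha and the first of Aldoa held none. None of the printed windows overlapped an annotated exon. On GRCm38 the genes lie at chr7:46841475-46855627 (Ldha, ENSMUSG00000063229), chr12:54178981-54203860 (Egln3, ENSMUSG00000035105) and chr6:29272488-29275446 (Hilpda, ENSMUSG00000043421), and 2 further genes of the results, Vegfa and Bnip3, at chr17:46016993-46032369 and chr7:138890836-138909519.
Ldha: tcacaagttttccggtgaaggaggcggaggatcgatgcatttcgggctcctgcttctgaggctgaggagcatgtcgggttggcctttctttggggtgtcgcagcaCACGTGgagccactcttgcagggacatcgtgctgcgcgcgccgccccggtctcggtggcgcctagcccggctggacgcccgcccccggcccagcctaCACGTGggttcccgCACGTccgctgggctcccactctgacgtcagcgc
Aldoa: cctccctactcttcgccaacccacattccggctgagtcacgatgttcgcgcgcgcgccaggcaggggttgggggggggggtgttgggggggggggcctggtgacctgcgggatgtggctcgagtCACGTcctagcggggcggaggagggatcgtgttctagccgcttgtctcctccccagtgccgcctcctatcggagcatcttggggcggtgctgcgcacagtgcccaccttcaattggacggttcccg
Egln3: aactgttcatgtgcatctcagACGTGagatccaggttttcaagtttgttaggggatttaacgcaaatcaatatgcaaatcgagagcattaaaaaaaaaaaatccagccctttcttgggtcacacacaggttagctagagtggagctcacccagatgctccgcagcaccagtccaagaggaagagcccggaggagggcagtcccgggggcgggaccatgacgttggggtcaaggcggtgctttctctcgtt
Pgk1: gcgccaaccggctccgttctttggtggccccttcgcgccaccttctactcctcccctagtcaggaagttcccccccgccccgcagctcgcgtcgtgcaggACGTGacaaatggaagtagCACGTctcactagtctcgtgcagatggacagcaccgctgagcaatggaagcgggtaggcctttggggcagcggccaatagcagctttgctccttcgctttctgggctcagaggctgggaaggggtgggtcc
Hk2: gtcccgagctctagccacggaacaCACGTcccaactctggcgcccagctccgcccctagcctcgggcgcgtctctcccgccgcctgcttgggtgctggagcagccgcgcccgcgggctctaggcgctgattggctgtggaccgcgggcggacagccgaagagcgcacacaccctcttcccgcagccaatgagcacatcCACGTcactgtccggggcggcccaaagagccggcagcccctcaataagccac
P4ha1: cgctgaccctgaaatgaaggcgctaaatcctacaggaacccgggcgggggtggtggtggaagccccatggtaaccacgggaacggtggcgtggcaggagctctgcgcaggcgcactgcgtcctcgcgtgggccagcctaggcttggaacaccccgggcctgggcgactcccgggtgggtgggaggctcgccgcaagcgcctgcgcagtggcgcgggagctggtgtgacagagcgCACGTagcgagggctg
Hilpda: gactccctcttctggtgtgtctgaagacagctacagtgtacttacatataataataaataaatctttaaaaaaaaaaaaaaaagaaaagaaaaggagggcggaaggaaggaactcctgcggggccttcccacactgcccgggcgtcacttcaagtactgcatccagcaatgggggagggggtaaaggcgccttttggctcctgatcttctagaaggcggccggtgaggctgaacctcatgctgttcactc

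Depth and quality differed between the libraries. The control library held 14258 barcodes with a median of 5470.5 UMIs and the MC38 library 19822 barcodes with a median of 3141.5, where the protocol aimed for 10000 cells per channel. In the control, 74.8% of barcodes had more than 10% of UMIs from mitochondrial genes, against 33.3% in the MC38 library, so 3439 control and 11855 MC38 cells were kept. Cells were assigned to classes by marker genes that include no member, so the gates did not set the members' levels, and 13.2% of control and 17.1% of MC38 cells stayed ungated. A total of 10 classes with at least 50 cells in both libraries were compared. Every level below is in CPM, the UMIs of a gene per 1000000 UMIs of that class in that library, and every interval is an exact 95% interval that covers counting error only. With 1 library per group no difference between groups could be tested. For a member to be called, its levels had to differ at least 1.5-fold, the interval of the ratio had to lie wholly on one side of equality, and both libraries together had to hold at least 10 UMIs, and the share of all genes called in the same way is given beside the members' count.

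Among classes with at least 50 cells in a library, to which each order below is limited, the summed level of the 13 enzymes was highest in the control library in hepatocyte-like cells (4076 CPM), followed by mast-cell- or basophil-like cells (3731 CPM), and lowest in pDC-like (plasmacytoid dendritic) cells (1608 CPM). In the MC38 library it was highest in Kupffer-like cells, the resident macrophages of liver (6835 CPM, 6702 to 6969), then in monocyte- or macrophage-like cells (6497 CPM), and lowest in erythroid-like cells (668 CPM), where RNA of hepatocytes could give 64.5% of the value by the level of hepatocyte markers. These sums weight deep cells: the median Kupffer-like MC38 cell held 16 enzyme UMIs and the 90th percentile was 139.1. By the median cell's enzyme UMIs per 10000, hepatocyte-like (57.1) and monocyte- or macrophage-like cells (56.5) stood above mast-cell- or basophil-like (50.8) and Kupffer-like cells (49.8). The hypoxia-induced genes had another order. Their sum was highest in mast-cell- or basophil-like cells of both libraries, at 723 CPM (639.8 to 814, control) and 1207 CPM (1116 to 1304, MC38), and lowest in cDC1-like dendritic cells, at 226 and 307 CPM. Erythroid-like cells of the MC38 library came second at 778 CPM, of which Bnip3l alone gave 728 CPM. Over the 23 pairs of class and library with at least 50 cells, the log2 sums of the enzymes and of the hypoxia-induced genes had a Pearson r of 0.32, given as a description since pairs share libraries and depth. These pairs include the erythroid-like MC38 cells, lowest in that library for the enzymes and second for the hypoxia-induced genes. The r without them was not computed.

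**Figure D1:**
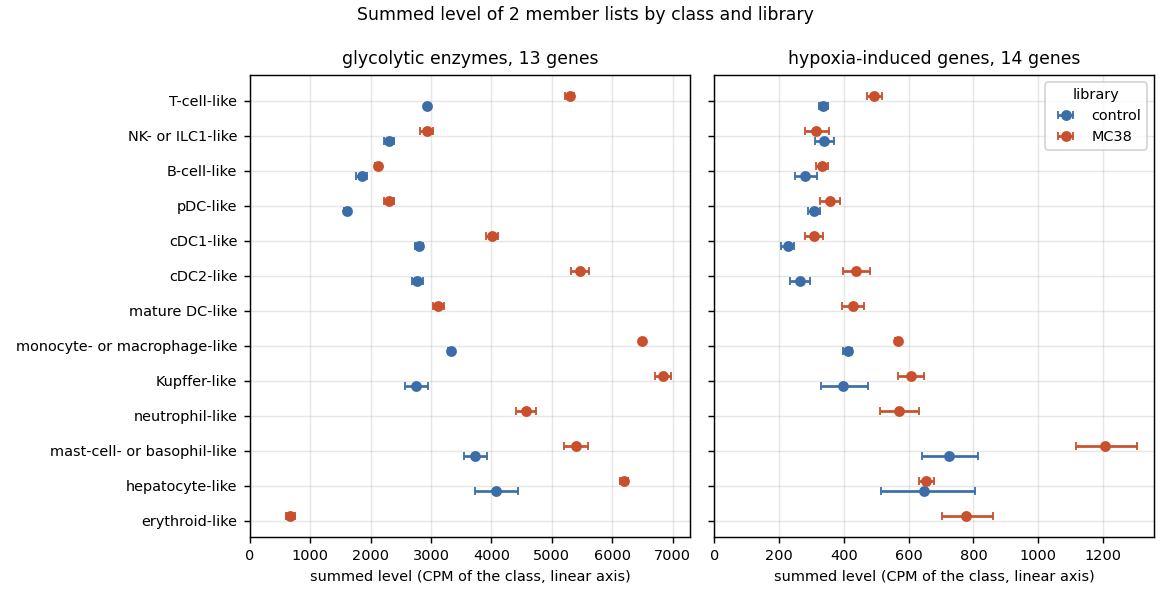
Summed level of the 13 glycolytic enzymes (left) and the 14 hypoxia-induced genes (right) in CPM of the class, on linear axes from 0, for the control (blue) and MC38 (orange) library in each class with at least 50 cells; points are sums and bars exact Poisson 95% intervals. The enzymes lie higher in the MC38 library in all 10 classes measured in both, while the hypoxia-induced genes reach their highest value, 1207 CPM, in mast-cell- or basophil-like cells.

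Several members were concentrated in 1 or 2 classes. Mast-cell- or basophil-like cells, granule-bearing cells of allergic inflammation, had the highest level of Hk2, the inducible hexokinase that traps glucose in the cell, with 244 CPM (control) and 271 CPM (MC38) against class medians of 43.9 and 24.7 CPM. They also led for Ero1l, an oxidase that forms disulfide bonds in the endoplasmic reticulum, with 207 and 452 CPM against medians of 21.2 and 22.3 CPM. The next class for Ero1l was T-cell-like in the control (46.4 CPM) and monocyte- or macrophage-like in the MC38 library (50.3 CPM), and for Hk2 it was Kupffer-like in both (102 and 75.8 CPM). The lactate exporter Slc16a3 was highest in the same cells at 117 CPM (control) and 209.5 CPM (MC38). There, neutrophil-like cells came next at 194 CPM, inside the interval of the first (173 to 252 CPM).

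The glucose transporters divided by class. Slc2a3, a transporter of high affinity, stood at 286 CPM in control mast-cell- or basophil-like cells and at 289 CPM (248 to 335) in neutrophil-like cells of the MC38 library, and at 1.82 CPM in monocyte- or macrophage-like cells of that library. Slc2a1, the widely expressed transporter, was highest in neutrophil-like cells of the MC38 library at 116 CPM and reached there 53.0 CPM in monocyte- or macrophage-like cells. Pfkfb4, which makes and breaks the activator of phosphofructokinase, was likewise highest in neutrophil-like cells at 120 CPM (93.6 to 151) against 41.1 CPM in monocyte- or macrophage-like cells. Set against monocyte- or macrophage-like cells of the same library, neutrophil-like cells had 5 of 6 transporters and regulators called higher and none lower, and 0 of 13 enzymes higher with 7 lower, while 13.2% of all genes were higher and 23.5% lower. The control library held 13 neutrophil-like cells, too few for a level.

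Pfkfb3, a paralog of Pfkfb4 that favours the activator, was 257 CPM (232 to 284) in mature DC-like cells, the migratory dendritic cells marked by Ccr7 and Fscn1, against a class median of 16.0 CPM in the MC38 library. The same cells led for Ndrg1, a stress-responsive gene, at 164 CPM, followed, among classes of at least 50 cells, by mast-cell- or basophil-like cells at 109 CPM. Bnip3l, a receptor that directs mitochondria to autophagy and is known for clearing them from red cell precursors, was 728 CPM (655 to 807) in erythroid-like cells and 252 CPM in hepatocyte-like cells, the next class. Its paralog Bnip3 was highest in hepatocyte-like cells, at 264 CPM (control) and 236 CPM (MC38), with neutrophil-like cells next at 81.4 CPM. Hepatocyte-like cells led for Ak4, a mitochondrial adenylate kinase, at 44.5 CPM with no other class of at least 50 cells of the MC38 library above 6.64 CPM, and for the cytokine Mif at 775 and 851 CPM. They were the lowest class for Pkm, the muscle-type pyruvate kinase, at 16.0 and 30.9 CPM, which is the enzyme that adult hepatocytes are known to replace with the liver type. The B-cell-like cells of the control led for Ankrd37 at 31.0 CPM, and Kupffer-like cells led for the vasodilator peptide gene Adm at 10.2 and 14.2 CPM, on 3 and 21 UMIs.

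**Figure D2:**
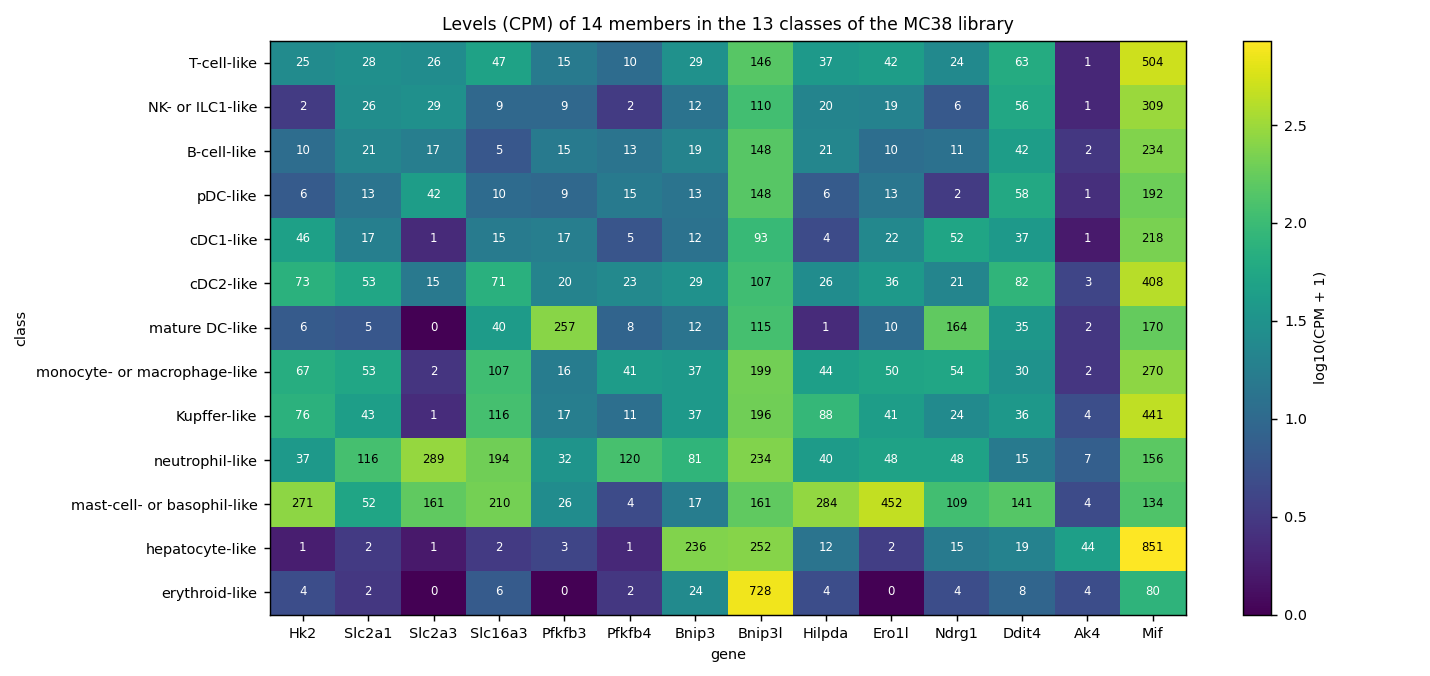
Levels in CPM of 14 members (columns) in the 13 classes of the MC38 library with at least 50 cells (rows); the number in each field is the CPM and the colour is log10(CPM + 1). Hk2, Hilpda and Ero1l peak in mast-cell- or basophil-like cells, Slc2a3 and Pfkfb4 in neutrophil-like, Pfkfb3 in mature DC-like, Bnip3l in erythroid-like, and Bnip3, Ak4 and Mif in hepatocyte-like cells.

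In T-cell-like cells (742 control, 431 MC38) the enzymes were higher in the MC38 library, and so were hypoxia-induced genes of low level, while Bnip3l, the member of that list with the highest UMI count, differed little. The summed enzymes were 2931 CPM (control) and 5293 CPM (MC38), a log2 ratio of 0.85 (0.82 to 0.88). The summed hypoxia-induced genes were 336 and 493 CPM, a log2 ratio of 0.55 (0.46 to 0.64), short of 1.5-fold. Of 32 members with enough UMIs, 17 were called higher and 1 lower, that is 53.1% and 3.13%, where 10.5% of all 11840 genes tested were higher and 6.03% lower. The median member of the enzymes had a log2 ratio of 0.78 and that of the 11 measured hypoxia-induced genes 1.07, against 0.00 over all genes.

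Of the enzymes, 7 of 13 were called higher in T-cell-like cells and 0 lower. Tpi1, triose phosphate isomerase, had the highest ratio, from 113 CPM (control) to 330.3 CPM (MC38) (log2 1.55, 1.42 to 1.68). Aldoa, the aldolase that splits the phosphorylated sugar, went from 259 to 532 CPM (log2 1.04), Pgam1 from 139 to 279.7 CPM (1.01) and Pfkl, the liver-type phosphofructokinase, from 27.7 to 55.2 CPM. Gapdh, Pkm and Ldha, the lactate dehydrogenase subunit, had log2 ratios of 0.90, 0.90 and 0.78. The hexokinases Hk1 and Hk2, at the entry of the pathway, had log2 ratios of 0.10 (-0.15 to 0.35) and 0.19 (-0.20 to 0.57). Gpi1, Pfkp, Eno1 and Pgk1 stayed under 1.5-fold, with log2 ratios between 0.34 and 0.58.

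Slc16a3, which carries lactate out of the cell, rose most among the transporters, from 12.0 to 47.3 CPM (log2 1.98, 1.59 to 2.37). Slc2a3, the main glucose transporter of resting T cells, was the member called lower, from 39.0 to 25.6 CPM (log2 -0.61, -0.96 to -0.26), and Slc2a1 had a log2 ratio of 0.54 (0.16 to 0.92), under 1.5-fold. Among hypoxia-induced genes, Bnip3 went from 4.28 to 29.4 CPM (log2 2.78, 2.18 to 3.42) and Hilpda, an inhibitor of lipid breakdown on lipid droplets, from 9.71 to 36.5 CPM (log2 1.91). Ndrg1 (8.71 to 23.9 CPM), Ddit4, an inhibitor of mTORC1 (30.3 to 63.2 CPM), and Ankrd37 (6.14 to 12.9 CPM) were called higher as well. Egln3, a prolyl hydroxylase gene that HIF itself is known to induce, went from 2.71 to 11.8 CPM on 19 and 43 UMIs (log2 2.12). Vegfa, the growth factor of blood vessels, had 0 UMIs in the control, where 0 of 742 cells allows a share of cells with a UMI of up to 0.404% (a limit on detection, not on cells that express the gene), and 30 UMIs in the MC38 library, at least 19.3-fold higher against a floor of 3 counts over the class, with the lower end of its counting interval at a log2 ratio of 3.88. Hif1a, the oxygen-regulated subunit itself, went from 79.9 to 138 CPM (log2 0.79) and Mif from 262 to 504 CPM (log2 0.94). P4ha2, Adm and Ak4 had under 10 UMIs, and Ero1l, P4ha1 and Egln1 had log2 ratios of -0.15, 0.33 and 0.16.

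The T-cell-like cells had all 10 T-cell markers in at least 10% of cells in both libraries, and they also held RNA of other cells. Of 7 classical monocyte markers 2 (control) and 5 (MC38) reached that share, with a sum of 691 and 1225 CPM, and of 8 hepatocyte markers 2 and 8 did. Myeloid markers in the T-cell-like cells stood at 12.6% (control) and 14.2% (MC38) of their level in monocyte- or macrophage-like cells, which at that share would give 420.4 of 2931 and 919 of 5293 enzyme CPM, and 52.0 of 336 and 80.1 of 493 CPM of the hypoxia-induced genes. Hepatocyte markers stood at 0.366% and 1.82% of their level in hepatocyte-like cells, equal to 2.13% of the enzyme sum and 14.6% of the Bnip3 level in the MC38 library. A cluster led by the T-cell genes Trbc2 and Cd3d held 94 control and 73 MC38 of these T-cell-like cells together with 16 control and 84 MC38 cells gated as monocyte- or macrophage-like. Without it the enzyme ratio was 0.73 and that of the hypoxia-induced genes 0.43. Vegfa, with 26 of its 30 MC38 UMIs in that cluster, was then left with 0 and 4 UMIs and was no longer called, nor was Egln3 (1.05, -0.05 to 2.14). Ero1l (49.8 to 32.1 CPM) was then called lower, and Hk2 (5.36 to 11.9 CPM) and P4ha1 (16.7 to 25.3 CPM) higher. Bnip3 (2.91), Hilpda (1.53), Slc16a3 (1.76), Tpi1 (115 to 314 CPM) and Ddit4 (1.17) stayed called higher without it. The part of myeloid or hepatocyte RNA in these differences was not tested.

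The libraries also filled the T-cell clusters unequally: a cluster led by Cxcr6 and Cd3g held 35.2% of control and 8.82% of MC38 T-cell-like cells. Within the cluster of mixed gates itself 21 of 32 measured members were higher and 0 lower, where 8.21% of all genes were higher and 8.49% lower. Within 2 other clusters that both libraries filled the enzyme ratio was smaller. In a cluster led by Tcf7, Cd8b1 and Lef1, genes of naive or central memory T cells (199 control, 162 MC38 cells), the enzymes went from 1761 to 2640.2 CPM (log2 0.58) and the hypoxia-induced genes from 282 to 347 CPM (log2 0.30, 0.07 to 0.53). There 8 of 27 measured members were higher and 0 lower, where 5.65% of all genes were higher and 4.33% lower. In a cluster led by Ccl1, Icos and Tnfrsf4, genes of activated or regulatory T cells (51 and 72 cells), the log2 ratios were 0.62 and 0.36, and 7 of 26 measured members were higher with 0 lower, where 6.26% of all genes were higher and 4.44% lower. Single cells overlapped widely. The median T-cell-like cell held 16 enzyme UMIs in each library, or 24.0 (control) and 30.5 (MC38) per 10000 UMIs, and the difference was widest in the upper tail, where the 90th percentile was 62.9 UMIs for control and 117 for MC38 cells.

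Both T-cell subsets showed the enzyme difference. They were taken from all T-cell-like cells, without leaving out the cluster of mixed gates. In CD8 T-cell-like cells (205 and 147) the enzymes went from 2636 to 5603 CPM (log2 1.09, 1.04 to 1.14) and 20 of 32 measured members were higher with 0 lower, against 9.95% and 6.87% of all genes. In CD4 T-cell-like cells (232 and 139) the enzymes went from 3260 to 5867 CPM (log2 0.85, 0.80 to 0.90), and 20 of 32 measured members were higher with 0 lower, against 8.36% and 5.85% of all genes. Tpi1 was higher in both, with log2 ratios of 2.07 and 1.54, and so was Slc16a3, with 2.33 and 1.88. Compared within the MC38 library, CD8 over CD4 T-cell-like cells had 0 members called higher. P4ha2, Adm and Ak4 had too few UMIs to be called there. Called lower were Hif1a (100.4 against 213 CPM, log2 -1.08), Egln3 (9.29 against 20.9 CPM), Ddit4 (50.2 against 80.9 CPM) and Ero1l (33.5 against 51.8 CPM), where 2.97% of all genes were higher and 7.88% lower. Whether so few calls differ from these shares was not tested.

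**Figure D3:**
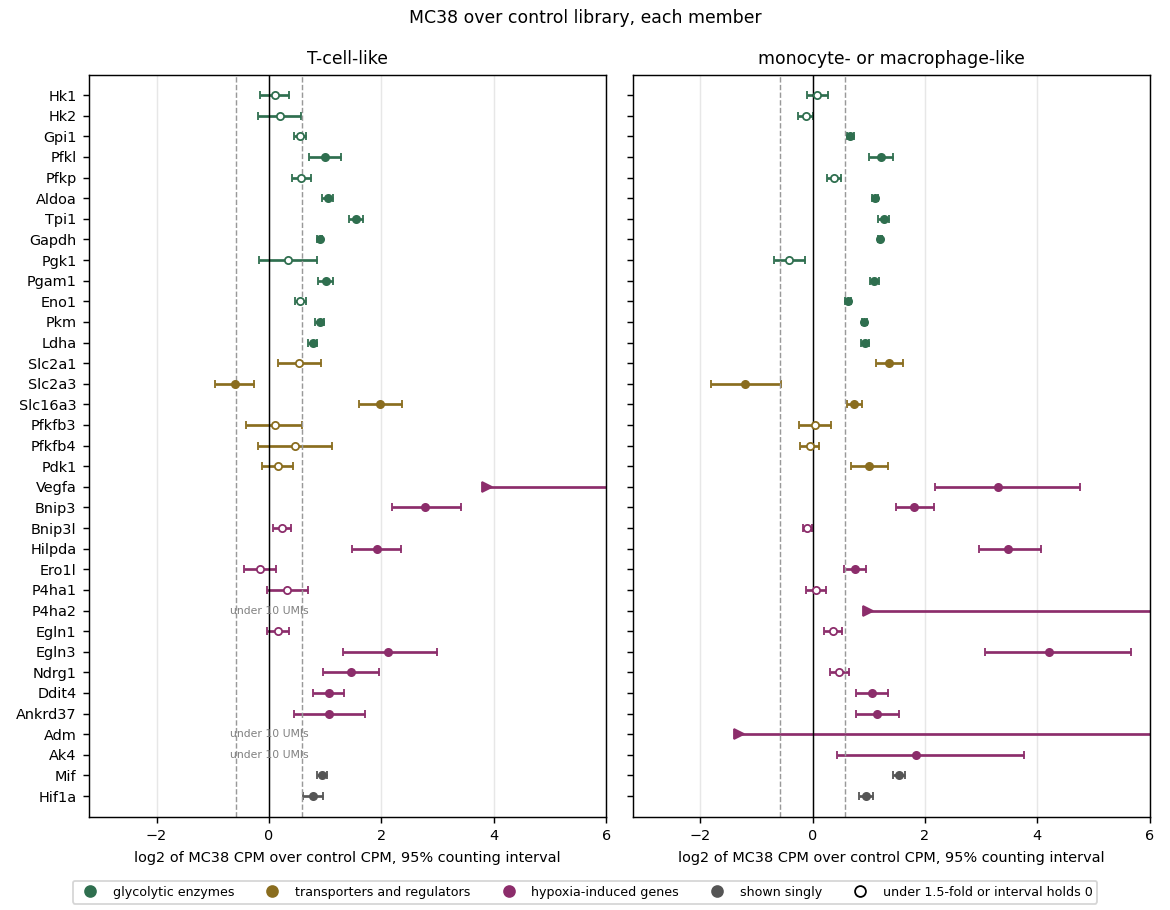
Log2 ratio of MC38 over control CPM for each of the 35 members in T-cell-like (left) and monocyte- or macrophage-like cells (right); points are ratios, bars exact 95% counting intervals, dashed lines 1.5-fold, filled points called members, and triangles mark the lower interval end of genes with 0 control UMIs. The called enzymes, 7 (left) and 9 (right), lie between log2 ratios of 0.64 and 1.55, the other enzymes lie between -0.41 and 0.58, Slc2a3 lies below 0 in both, and Vegfa, Hilpda and Egln3 lie furthest right in monocyte- or macrophage-like cells.

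In monocyte- or macrophage-like cells (790 control, 4045 MC38) the enzymes, the glucose importer Slc2a1, the kinase Pdk1 and a set of hypoxia-induced genes were higher in the MC38 library. The enzyme sum was 3328 CPM (control) and 6497 CPM (MC38) (log2 0.97, 0.95 to 0.98), and the hypoxia-induced sum was 412 and 566 CPM (log2 0.46, 0.41 to 0.51), under 1.5-fold. Bnip3l, the member of that list with the highest UMI count, was 213 and 199 CPM (log2 -0.10), and without it the list had a log2 ratio of 0.88. Of 35 members, 23 were called higher (65.7%) and 1 lower (2.86%), where 11.4% of the 13376 genes tested were higher and 12.4% lower. The median enzyme had a log2 ratio of 0.92 and the median hypoxia-induced gene 1.10, against -0.03 over all genes.

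Of the 13 enzymes, 9, from Gpi1 at the second step to Ldha, were called higher and 0 lower. Tpi1 (119 to 286 CPM, log2 1.27), Pfkl (25.4 to 59.2 CPM, 1.22), Gapdh (932 to 2141 CPM, 1.20), Aldoa (333 to 721 CPM, 1.11) and Pgam1 (207 to 443 CPM, 1.10) had the highest ratios. Ldha went from 239 to 455 CPM (0.93) and Pkm from 552 to 1045 CPM (0.92), with Gpi1 at 0.67 and Eno1 at 0.64. Hk1, Hk2 and Pfkp were not called, with log2 ratios of 0.08, -0.13 and 0.38, so neither Hk1 nor Hk2 followed the 9 enzymes called higher. A median cell of the class held 29 enzyme UMIs in the control library and 64 in the other, or 31.2 and 56.5 per 10000 UMIs. Pgk1, the kinase that yields the first ATP of the pathway, was 17.1 and 12.9 CPM (log2 -0.41, -0.69 to -0.13), and its level is uncertain because the near-identical copy Pgk1-rs7 could share its reads. Eno1 and Aldoa have such copies too (Eno1b, Aldoart1, Aldoart2), and Hk1 overlaps the gene Hk1os.

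Slc2a1 went from 20.5 to 53.0 CPM (log2 1.37, 1.14 to 1.61), Slc16a3 from 64.3 to 107 CPM (0.74) and Pdk1, which closes the entry of pyruvate into mitochondria, from 10.6 to 21.2 CPM. Slc2a3 was called lower, from 4.18 to 1.82 CPM (log2 -1.20, -1.80 to -0.57), while Pfkfb3 and Pfkfb4 had log2 ratios of 0.04 and -0.05. Of the 14 hypoxia-induced genes 9 were called higher and 0 lower. Egln3 went from 0.785 CPM on 6 UMIs to 14.5 CPM on 685 UMIs (log2 4.21, 3.08 to 5.66), Hilpda from 3.92 to 43.9 CPM (log2 3.49, 2.97 to 4.06) and Vegfa from 0.785 CPM on 6 UMIs to 7.76 CPM on 367 UMIs (log2 3.31, 2.17 to 4.76). Bnip3 (10.6 to 37.2 CPM, log2 1.81), Ankrd37 (8.37 to 18.5 CPM, 1.14), Ddit4 (14.6 to 30.5 CPM, 1.06) and Ero1l (29.8 to 50.3 CPM, 0.75) followed, with Ak4 at 4 and 89 UMIs. P4ha2, a collagen prolyl hydroxylase subunit, had 0 and 47 UMIs, at least 2.53-fold higher against a floor of 3 counts over the class, with the lower end of its counting interval at a log2 ratio of 0.99. Ndrg1, Egln1 and P4ha1 had log2 ratios of 0.48, 0.36 and 0.07, and Adm was seen with 0 and 11 UMIs. Mif went from 93.2 to 270.2 CPM (log2 1.54) and Hif1a from 75.4 to 145 CPM (0.95).

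The 2 libraries filled this class with different cells. Of the control cells 61.0% lay in a cluster led by the interferon-induced genes Isg15 and Ifit3, which held 1.04% of the MC38 cells, and most MC38 cells lay in clusters led by S100a8 and Lcn2 (31.0%), Tgfbi and Chil3 (28.3%) or C1qb and C1qa (15.5%), with at most 11 control cells each. A further cluster, led by Spp1 and Thbs1, held 2 control and 364 MC38 cells of the class. Its MC38 cells had 10746 CPM of enzymes and 1306 CPM of hypoxia-induced genes. MC38 cells of the clusters led by S100a8, Tgfbi and C1qb had 6124, 5630 and 5241 CPM of enzymes. Their hypoxia-induced genes summed to 462, 468 and 430 CPM. A difference between the libraries in this class and a difference between cell states cannot be told apart. This holds within a cluster too, since its cells can still differ in state. A cluster that both libraries filled was led by Cxcl9, Cxcl10 and Gbp2 and held 77 control and 126 MC38 cells. Within it the enzymes went from 3878 to 7677 CPM (log2 0.99) and the hypoxia-induced genes from 389.8 to 560.3 CPM (log2 0.52, 0.33 to 0.72). There 21 of 31 measured members were higher and 0 lower, where 9.66% of all genes were higher and 9.69% lower, with Tpi1 at 1.59, Bnip3 at 12 and 90 UMIs, Hilpda at 3.17 on 2 and 36 UMIs, and Mif at 1.33. In classical-monocyte-like cells, gated by Ly6c2, Ccr2 and other markers (632 and 3185 cells), the enzymes had a log2 ratio of 0.78 and the hypoxia-induced genes 0.27. That subset leaves out the cells of the class with 2 or more Arg1 UMIs, described below, which were 2 control and 629 MC38 cells. Of 34 measured members 18 were higher and 2 lower (Slc2a3 and Pgk1), where 9.69% of all genes were higher and 12.0% lower. Hepatocyte markers stood at 1.19% of their level in hepatocyte-like cells in the MC38 monocyte- or macrophage-like cells, equal to 1.13% of the enzyme sum.

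A subset of MC38 monocyte- or macrophage-like cells held most UMIs of Vegfa (248 of 367), Hilpda (1316 of 2078) and Egln3 (383 of 685). Arginase 1 (Arg1), an enzyme of arginine breakdown known in tumor macrophages, was counted at 2 UMIs or more in 629 of 4045 of these cells in the MC38 library and in 2 of 790 in the control. The 629 cells are a range of a count rather than a type, and Arg1 at that level was also seen in 13.9% of T-cell-like and 4.68% of B-cell-like MC38 cells (median depths 5541 and 2813.5 UMIs, against 11291 in the class). The part of free RNA in these counts was not tested. Their enzyme sum was 9227 CPM against 5939.9 CPM in the others of the class and library (log2 0.64, 0.62 to 0.65), and their hypoxia-induced sum 974 against 483 CPM (log2 1.01). Of 35 members, 22 were higher in the Arg1-high cells (62.9%) and 0 lower, where 13.2% of 13161 genes were higher and 2.61% lower.

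Among the hypoxia-induced genes 11 of 14 were higher: Vegfa (30.9 against 3.03 CPM, log2 3.35, 3.03 to 3.68), P4ha2 (3.25, on 31 against 16 UMIs), Hilpda (164 against 19.4 CPM, 3.08), Egln3 (47.8 against 7.69 CPM, 2.64), Ak4 (4.99 against 1.25 CPM), Bnip3 (90.2 against 26.4 CPM, 1.77), Ero1l (116 against 36.9 CPM, 1.65), Ankrd37 (1.05), P4ha1 (0.97), Egln1 (0.70) and Adm on 9 against 2 UMIs. Bnip3l, Ndrg1 and Ddit4 were not called, with log2 ratios of 0.14, 0.25 and 0.38, and for Ddit4 the interval, 0.19 to 0.57, lay above 0 and below 1.5-fold. Of the enzymes 6 of 13 were higher, with Tpi1 (1.18) and Ldha (1.08) first. Slc2a1 (1.28), Pdk1 (1.22), Pfkfb3 (1.10) and Slc16a3 (0.82) were higher among the regulators, and Pfkfb4 had a log2 ratio of -0.41 (-0.61 to -0.22). Mif was 609.6 against 201 CPM (1.60) and Hif1a had a log2 ratio of 0.55, short of 1.5-fold.

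Graded by Arg1 UMIs, cells with 1 UMI had levels near those with none: Hilpda was 20.4 CPM in the 2741 cells with no Arg1 UMI and 15.7 CPM in the 675 cells with 1. It was 64.0 CPM in the 386 cells with 2 to 9 UMIs and 287 CPM in the 243 cells with 10 or more. Vegfa followed with 3.05, 2.95, 13.8 and 51.9 CPM, and Mif with 193, 229.7, 369 and 905 CPM. Ldha had 375, 409.5, 595 and 1073 CPM. Pfkfb4 went the other way, with 42.7, 43.5, 38 and 25 CPM. The median depth was 11138 UMIs in cells without Arg1 and 12981 in the highest group. Without the Arg1-high cells, the class still differed between libraries by a log2 ratio of 0.84 in the enzymes, but by 0.23 in the hypoxia-induced genes. Hilpda (3.94 to 19.4 CPM), Egln3 (3.29), Vegfa (1.94), Bnip3 (1.31) and Slc2a1 (1.05) then stayed called higher, and Ero1l (0.30), Slc16a3 (0.56), Eno1 (0.53), Ak4 (1.25) and P4ha2 (0 and 16 UMIs) did not.

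**Figure D4:**
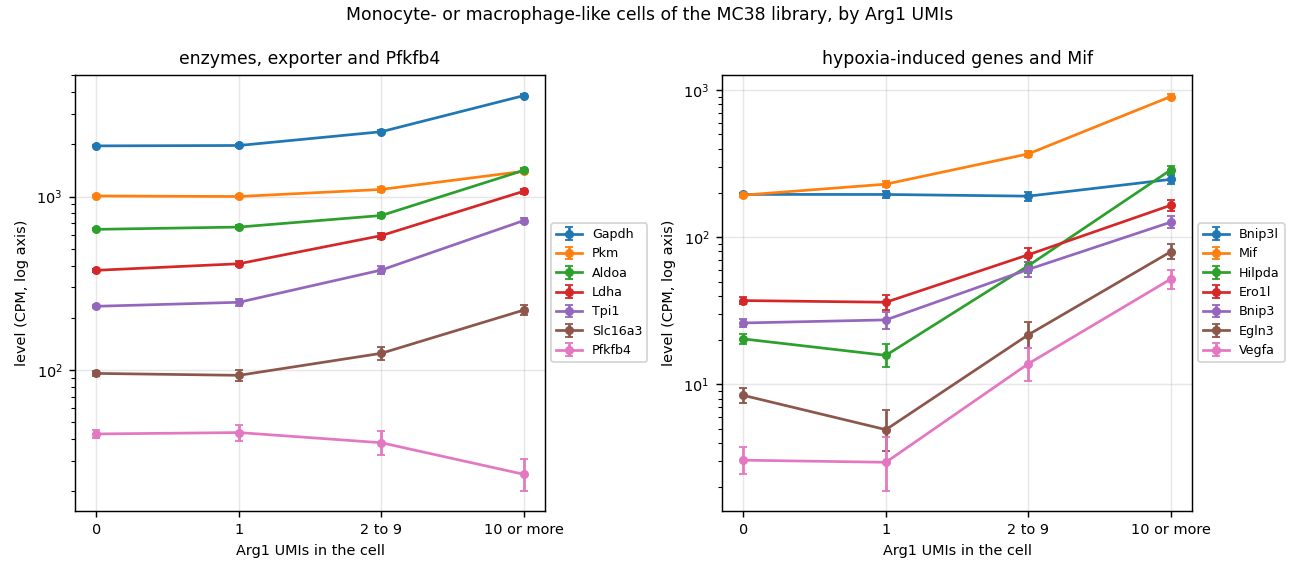
Level in CPM (log axis) of 14 members in monocyte- or macrophage-like cells of the MC38 library, grouped by the Arg1 UMIs counted in the cell; points are CPM of the group and bars exact Poisson 95% intervals. Levels at 0 and 1 Arg1 UMI lie close together, Hilpda reaches 287 CPM and Vegfa 51.9 CPM at 10 or more, and Pfkfb4 lies at 25 CPM.

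In the other classes the count of members called higher ranged widely. In cDC2-like dendritic cells (94 and 80 cells) 22 of 31 measured members were higher and 0 lower, where 7.91% of all genes were higher and 8.26% lower. Of these cells, 27 control and 37 MC38 cells had a marker lead over the next class within 0.1 of the limit set for the gate. There the enzymes went from 2775 to 5471 CPM (log2 0.98) with Tpi1 (1.54) and Pfkp (1.49) first, and Slc2a1 (1.99), Slc16a3 (1.94), Bnip3 (6.21 to 29.0 CPM) and Hilpda (2.06) were higher as well. In Kupffer-like cells (60 and 200) 16 of 33 were higher and 1 lower, where 6.87% of all genes were higher and 8.90% lower. Their enzymes had the highest log2 ratio of any class, 1.31 (1.21 to 1.42), with Pgam1 at 2.13 (115 to 503 CPM) and Aldoa at 1.65, and Pfkfb4 was the member called lower (47.5 to 10.8 CPM). Hilpda was seen there with 1 control UMI and 130 MC38 UMIs. In mast-cell- or basophil-like cells (97 and 158) 11 of 26 were higher and 1 lower, where 6.41% of all genes were higher and 6.99% lower. Hilpda stood out in them, from 10.6 CPM on 4 UMIs to 284 CPM on 153 UMIs (log2 4.74, 3.36 to 6.64), and Slc2a3 fell from 286 to 161 CPM (log2 -0.83).

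Lymphoid and plasmacytoid cells other than T cells showed less. In B-cell-like cells (191 and 962) 0 of 13 enzymes passed the call in either direction and the enzyme sum had a log2 ratio of 0.20 (0.12 to 0.27), with hepatocyte RNA able to give 9.98% of the MC38 value. Of 31 measured members 4 were higher there (Pdk1, Bnip3, Hilpda and Ddit4) and 2 lower (Ero1l and Ankrd37), where 5.52% of all genes were higher and 6.77% lower. In NK- or ILC1-like cells (291 and 179) 4 of 28 were higher (Aldoa, Bnip3, Ddit4 and Mif) and 1 lower (Slc2a3), where 4.46% were higher and 4.89% lower. Their hypoxia-induced sum was 338 and 314 CPM (log2 -0.11, -0.32 to 0.11). In pDC-like cells (381 and 170) 7 of 31 were higher and Ndrg1 was lower, where 6.14% of all genes were higher and 4.88% lower, with Slc16a3 at 7 and 13 UMIs (log2 2.13) and Pgam1 at 0.87. In cDC1-like cells (152 and 112) 9 of 30 were higher, with Ddit4 going from 5.55 to 37.2 CPM and Pfkp at 1.05, and Slc2a3 and Pgk1 were lower, where 6.03% of all genes were higher and 8.55% lower. In hepatocyte-like cells (73 and 2880) 2 of 28 were higher, Ldha (703 to 2442 CPM, log2 1.80) and Aldoa, and Ndrg1 was lower, where 3.12% of all genes were higher and 5.88% lower. The differences between classes in these ratios were not tested.

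Across the 10 classes, Ddit4 was called higher in 9, and Aldoa, Tpi1, Slc16a3 and Mif in 7 each, never lower. Hilpda, Pkm and Ldha were called higher in 6. Slc2a3 was called lower in 5 and higher in none. Hk1, Hk2, Pfkfb3, Bnip3l, Egln1 and Adm were called in none, Adm with under 10 UMIs in 7 of them. Ero1l, Ndrg1 and Ankrd37 were called in both directions, Ero1l and Ankrd37 lower in B-cell-like cells and Ndrg1 lower in pDC-like and hepatocyte-like cells. Within the control library, nonclassical over classical monocyte-like cells (139 and 632) had Ddit4 at 51.4 against 6.61 CPM (log2 2.96) and Slc16a3 at 115 against 54.0 CPM, and Ndrg1 at 12.7 against 44.6 CPM, with none of the 13 enzymes called where 8.43% of all genes were higher and 8.04% lower.

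**Figure D5:**
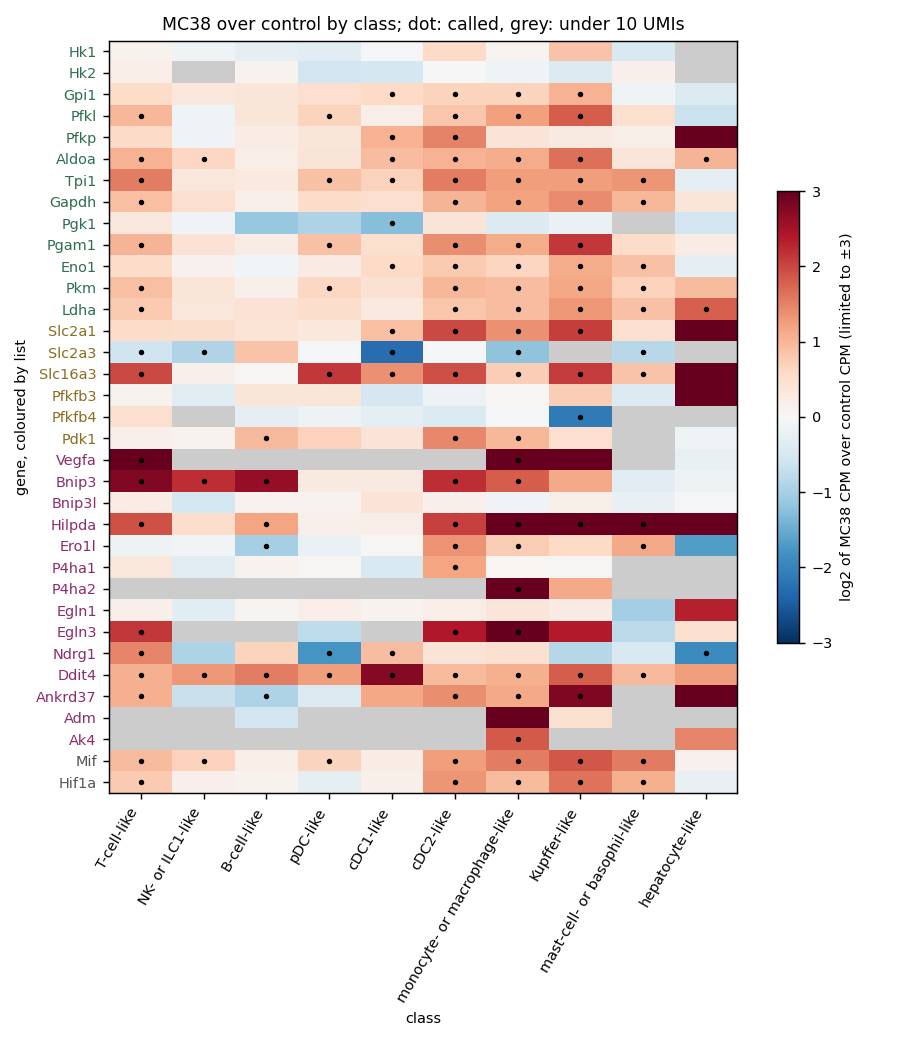
Log2 ratio of MC38 over control CPM (colour, limited to values from -3 to 3) for each member (rows) in the 10 classes with at least 50 cells in both libraries (columns); dots mark called members, grey marks fewer than 10 UMIs, and a ratio over 0 control UMIs is drawn at the limit. Calls are densest in the columns of T-cell-like, cDC2-like, monocyte- or macrophage-like and Kupffer-like cells, and the rows of Hk1, Hk2, Bnip3l and Egln1 hold none.

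Related genes outside the members gave a mixed picture in monocyte- or macrophage-like cells. Among 23 further isozymes and transporters, 5 of 18 measured were higher and 1 lower, where, for this and the following lists of the class, 11.4% of all genes were higher and 12.4% lower. Galk1, which phosphorylates galactose, was 9.15 and 26.9 CPM (1.56), and Eno3, the muscle-type enolase, fell from 62.0 to 6.15 CPM (log2 -3.33). Of the gluconeogenesis genes 3 of 5 measured were higher, led by Pck1 (2.22 to 32.8 CPM) and Fbp1 (2.62 to 25.6 CPM), which hepatocytes, whose RNA was more abundant in the MC38 library, also express. In the pentose phosphate pathway 1 of 7 was higher, Pgd (188 to 391 CPM, log2 1.05). For pyruvate entry and the citric acid cycle, 1 of 21 was higher, the pyruvate carrier Mpc1 (163 to 253 CPM, log2 0.64), and 0 were lower, with a list median of 0.16. In T-cell-like cells 0 of these 21 were called in either direction.

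Among 10 genes of oxygen sensing, 8 had enough UMIs in monocyte- or macrophage-like cells. Epas1, which encodes HIF-2 alpha, was higher on 3 and 194 UMIs (log2 3.39, 1.82 to 5.68) and Cited2, a brake on HIF, was lower (114 to 68.3 CPM, log2 -0.74). Of 30 other hypoxia-induced genes, 9 of 26 measured were higher and 2 lower: Ier3 went from 29.6 to 185 CPM (log2 2.65), while Pdgfb (13.7 to 4.29 CPM) and Wsb1 (112 to 61.5 CPM) fell. In the Arg1-high comparison 12 of the 26 were higher and 1 lower, where 13.2% of all genes were higher and 2.61% lower. Lists of 3 other programs were counted in the same class, against the same 11.4% and 12.4% of all genes, and their part in the members' levels was not tested. Of 10 integrated stress response genes 5 were higher and 1 lower, with Slc7a11 at 5.88 and 19.3 CPM, Trib3 at 0 and 74 UMIs and Atf3 lower (log2 -0.85). Of 6 glucocorticoid response genes 4 were higher and 1 lower, with Fkbp5 at 9.68 and 67.9 CPM (log2 2.81), Klf9 at 1.59 and Zbtb16 at -2.11. Ddit4 is known to respond to glucocorticoids and to that stress pathway as well as to hypoxia. Of 14 cell cycle genes 1 was higher and 2 lower, with Ube2c at 0.70 and Top2a at -0.87.

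Over the 23 pairs of class and library, the genes whose pattern was most like that of the summed hypoxia-induced genes, among 6609 compared, were Map1lc3b (Pearson r 0.82), which encodes a protein of autophagosome membranes, and Klf9 (0.80), a transcription factor gene. Mocs1 (0.79), Mocos (0.79), Plk3 (0.78), Fam63a (0.77), Carhsp1 (0.76) and March8 (0.76) came next. Map1lc3b was highest in neutrophil-like cells of the MC38 library at 950.0 CPM, and Plk3 in mast-cell- or basophil-like cells of that library at 592 CPM. In some classes the sum is mostly Bnip3l, as in erythroid-like MC38 cells (728 of 778 CPM). The r values are a description, since pairs share libraries and depth.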

How the data were processed

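Both libraries were deposited as matrices of UMI counts per gene and barcode. The submitters' processing notes list Cell Ranger 2.2 with STAR, bcl2fastq, R 3.6.0 with Seurat 2.3.4, and build GRCm38.p6, without the role of each, while the matrix headers name software version 3.0.2. From these deposited counts, barcodes with under 200 genes, over 10% mitochondrial UMIs (13 genes) or called as doublets by Scrublet in scanpy 1.11.5 (4.33% of control and 8.71% of MC38 barcodes) were left out. The libraries shared 63 barcodes, 8 of them kept in both.

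A cell was gated by at least 3 distinct markers with a lead of 0.15 over the next class. Hepatocyte-like and erythroid-like cells needed 200 and 1000 marker UMIs per 10000. No marker is a member. The members and lists were chosen with earlier results of these data known, and the gate thresholds and the Arg1 limit of 2 UMIs were set after the data were seen. UMIs were summed per class and library, with exact Poisson intervals for CPM and exact conditional binomial intervals for ratios (scipy 1.17.1, 95%). They cover counting error only. The calling script was tested on simulated data. All 35 members are accounted for, with values in full for those called in T-cell-like or monocyte- or macrophage-like cells or at least 5 times the class median in 1 class. From each of 9 other pathway lists at most 4 genes were named, the 2 highest and 2 lowest by the interval end nearest 0 in monocyte- or macrophage-like cells. Clusters used 2000 variable genes without the members, 30 principal components, 15 neighbours and resolution 1. For likeness of pattern, genes above 50 CPM in a class were compared as log2(CPM + 10). Some genes of these lists are not reported here.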

Additional observations from a re-analysis of the deposited data

Results flagged for a closer look

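A cluster of 173 cells (3 control, 170 MC38) led by Tnnt2, Bgn and Sparc lay mostly outside the classes compared, and 92.5% of it was ungated. Its glycolytic enzymes summed to 10213 CPM and its hypoxia-induced genes to 626 CPM, a signal in cells that mostly enter no comparison of the report. The exceptions are 4 cells gated as monocyte- or macrophage-like and 1 each as Kupffer-like, B-cell-like and cDC2-like. The enzyme sum lay above that of every whole class of at least 50 cells in either library, of which the highest was 6835 CPM. Both sums lay below those of a cluster within the monocyte- or macrophage-like class, led by Spp1 and Thbs1. Its 364 MC38 cells of that class had 10746 CPM of enzymes and 1306 CPM of hypoxia-induced genes. The median depth of the 173 cells was 1638 UMIs.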

How the results depend on the processing

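No paired analysis was possible because each group has 1 library. No result reversed. Values are log2 ratios of MC38 over control. In T-cell-like cells the enzyme ratio was 0.69 with at most 5% mitochondrial UMIs (49 control and 112 MC38 cells left). With at most 30% it was 1.11, on 3117 control and 628 MC38 cells, against 742 and 431 at the limit of 10%. In T-cell-like cells it was 0.76 after thinning to 1000 UMIs per cell, 0.63 as a mean over cells and 0.73 in clusters made without the members. Their hypoxia-induced genes had 0.73 at 5%, 0.25 thinned, 0.45 as a mean over cells, 0.30 in clusters, 0.71 without Bnip3l and 0.74 with Mif. Of alternatives chosen after seeing the data, a marker lead of 0.3 gave 0.73 and 0.36 for these lists, leaving out the joint T and myeloid cluster 0.73 and 0.43, and leaving out cells with 5 or more cell cycle UMIs 0.80 for the enzymes. The count of members called higher fell from 17 to 11 after thinning, and the count called lower was 0 at 5%, 2 in clusters and 2 without the joint cluster. In monocyte- or macrophage-like cells the enzymes had 1.02 at 30%, 0.91 thinned, 1.03 scaled by the median ratio of genes, 0.86 without Gapdh, 0.95 with the lead of 0.3 and 0.84 without Arg1-high cells. Their hypoxia-induced genes had 0.58 at 5%, 0.39 thinned, 0.52 scaled by the median ratio, 0.88 without Bnip3l, 0.73 with Mif and 0.23 without Arg1-high cells. The count called lower was 0 after thinning and 0 in clusters. The cause of these shifts was not tested.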
